A study of Mus musculus with 4 samples.

Results

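The mu class of glutathione transferases is measured here in mouse liver by all 7 of its listed genes, Gstm1 to Gstm7, out of 9285 named genes on the array. Members were chosen by annotation: a probe counted if the platform annotation gave it to 1 of these genes alone. That gave 10 of the 15478 probes, with 2 probes each for Gstm1, Gstm2 and Gstm6 and 1 probe each for Gstm3, Gstm4, Gstm5 and Gstm7.

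The livers came from male mice of mixed B6/FVB strain, 7 to 8 weeks old and fed enough selenium. In DTrsp mice the liver lacked Trsp, the gene for the selenocysteine tRNA, which is needed to make every selenoprotein. A34 mice carried 2 copies of a mutant Trsp transgene in which T34 is replaced by A34. G37L mice had 2 copies, and G37H mice 16 copies, of a transgene in which A37 is replaced by G37. Each line was set against wild-type (Trsp) littermates on 2-colour arrays, with mutant cDNA labelled Cy5 and wild-type cDNA Cy3. The labels do not state how Trsp was removed, or whether the transgenic livers kept their own Trsp. Per the labels, each value is an average made by the authors, over 3 animals in G37H and 4 in each other line, although the decimals of some values show fewer. The spread between animals is not in the deposited values, so no SD, interval or test is given, and every comparison below is a description. Values are read as log2 of mutant over wild type, so 1 is a 2-fold higher and -1 a 2-fold lower signal. That direction is likely, from the dye labels, but the sample titles name wild type first. If it were turned, every sign would change.

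Glutathione transferases join the tripeptide glutathione to reactive electrophiles, which makes them soluble and ready for export. The mu enzymes are cytosolic dimers and are abundant in rodent liver. Several of their genes, with others of detoxification, are induced by electrophiles through the transcription factor NRF2, which binds antioxidant response elements. The genes are close in sequence, so a probe named for 1 gene may also read a relative. The probe sequences were not used here.

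In DTrsp liver, Gstm3, Gstm4, Gstm6 and Gstm2 were at least 2-fold above wild type, while Gstm5 lay below it. This was 4 of 7 genes at least 2-fold higher and 0 of 7 at least 2-fold lower, where 3.27% of all genes were higher and 1.62% lower by that much. In A34 (1.4% of all genes higher and 0.452% lower), G37L (2.51% and 3.96%) and G37H (2.78% and 3.1%), 0 of 7 genes were 2-fold away from wild type in either direction. The family had a median of 1.15 in DTrsp, where all genes had one of 0.16. It was 0.24 in A34 (all genes 0.07), -0.28 in G37L (all genes -0.11) and -0.03 in G37H (all genes -0.11). After centring each line on the median of all genes, Gstm2 lay at 0.99 and 3 of 7 genes stayed at least 2-fold higher in DTrsp, and the family median in G37H turned to 0.083.

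The start regions of 3 members are shown because they sit at the ends of the family's range in DTrsp: Gstm3 and Gstm4, the 2 highest genes, and Gstm5, the lowest. Each is the 250 bases before the annotated start, 5′ to 3′ on the gene's strand, from RefSeq on GRCm38.p6. Gstm3 is on the minus strand at chr3:107969175-107969424, Gstm4 on the minus strand at chr3:108044857-108045106 and Gstm5 on the plus strand at chr3:107895604-107895853. Capitals mark the core of the antioxidant response element, TGACNNNGC, searched on both strands.
Gstm3: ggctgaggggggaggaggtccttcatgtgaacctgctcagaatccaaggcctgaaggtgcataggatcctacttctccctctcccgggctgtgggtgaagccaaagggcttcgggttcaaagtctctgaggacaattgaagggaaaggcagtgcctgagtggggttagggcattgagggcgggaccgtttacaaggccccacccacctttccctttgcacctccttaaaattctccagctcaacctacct
Gstm4: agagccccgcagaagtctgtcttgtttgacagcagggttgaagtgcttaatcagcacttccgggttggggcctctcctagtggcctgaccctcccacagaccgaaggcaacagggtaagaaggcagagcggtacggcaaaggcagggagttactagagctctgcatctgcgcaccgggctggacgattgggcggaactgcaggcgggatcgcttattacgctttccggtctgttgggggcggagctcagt
Gstm5: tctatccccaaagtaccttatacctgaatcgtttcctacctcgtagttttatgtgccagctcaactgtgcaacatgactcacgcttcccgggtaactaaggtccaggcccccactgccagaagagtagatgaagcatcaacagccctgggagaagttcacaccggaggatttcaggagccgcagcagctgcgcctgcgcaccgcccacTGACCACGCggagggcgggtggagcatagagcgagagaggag

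The core was present 42 bases before the Gstm5 start, as TGACCACGC. It was not among the letters shown for Gstm3 or Gstm4. Over the family, 2 of 12 annotated start windows held it, 1 of Gstm5 and 1 of Gstm7. Of all 32851 windows of the same length, 10.2% held it. A GC box, GGGCGG on either strand, was in 5 of the 12 windows, belonging to Gstm3, Gstm4, Gstm5 and Gstm7, and in 32.7% of all windows. The Gstm4 windows overlap almost fully and hold the same GC boxes, so these count in both. The windows of Gstm1 and those of Gstm7 overlap in part. The longest exact run shared by windows of different members was 13 bases, between Gstm3 and Gstm6. A match of letters is not a binding site, and elements beyond these windows were not searched.

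Gstm3, a mu gene that responds strongly to NRF2 activators in mouse liver, had the largest value of the family. Its value was 3.46 in DTrsp, while A34 had 0.33, G37L 0.02 and G37H 0.25. The DTrsp value is an 11.0-fold difference, rank 3 from the top of all 9285 genes, and lay 3.14 above the highest of the 3 transgenic lines. In each transgenic line the gene was within 1.26-fold of wild type.

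Gstm4, another cytosolic mu transferase, was the second highest in DTrsp at 2.30, a 4.92-fold difference and rank 18 of all genes. Its values were -0.01 in A34, -0.53 in G37L and -0.28 in G37H. Its G37L value was the lowest of the 7 genes in that line. Its DTrsp value was above and its A34, G37L and G37H values were below the median of all genes.

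Gstm6 has 2 probes, which both lay above wild type in DTrsp, at 2.59 and 0.90. Their mean of 1.75 is a 3.36-fold difference, rank 41 of all genes. The probe with the larger DTrsp value was at 0.38 (A34), -0.33 (G37L) and 0.32 (G37H). The other probe was at 0.30, -0.27 and 0.03 in those lines. The 2 probes thus lay close together in the transgenic lines and 1.69 apart in DTrsp.

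Gstm2, a mu transferase of the liver, had probe values of 2.16 and 0.15 in DTrsp. Their mean of 1.15 counts the gene as at least 2-fold higher, and only 1 of its 2 probes passed that threshold. In A34 the probe with the larger DTrsp value was at -0.11 and the other at 0.46, and in G37L they were at -0.30 and -0.50. In G37H they were at -0.81 and -0.89, only 0.08 apart. Their G37H mean of -0.85 is a 1.80-fold lower signal and the lowest gene value of the family in any line, at rank 8801 of 9285 from the top.

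Gstm1, the main mu transferase of mouse liver, showed the same kind of split. Its probes were at 1.63 and 0.07 in DTrsp, with a mean of 0.85, so the gene did not reach 2-fold although 1 probe did. In A34 the 2 probes were at 0.51 and 0.42, and in G37L at -0.01 and -0.56. In G37H they were on opposite sides of wild type, at 0.54 and -1.19. That last value was the only Gstm probe value at least 2-fold lower in any line, where 3.52% of all probes in G37H were. Its decimals show that it is not an average over all 3 animals.

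Gstm7 had 1 probe and stayed near wild type in every line, with 0.52 in DTrsp. A34 had 0.24, G37L -0.16 and G37H -0.03. Its range over the 4 lines, 0.68, was the smallest of the family. The values of Gstm7 in A34 and G37H were also the family medians of those lines.

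Gstm5, known in mouse mainly from brain and testis, was the only member below wild type in DTrsp. It was at -0.54 in DTrsp, a 1.46-fold lower signal, and at -0.18 in A34, 0.16 in G37L and 0.26 in G37H. It was the lowest Gstm gene in DTrsp and in A34 and the highest in G37L and in G37H. None of these values reached 2-fold as deposited. With the median of the ribosomal protein genes as the zero level, the DTrsp value was -1.05, past 2-fold. Signal levels were not analysed here, so whether its probe was above background is unknown.

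**Figure D1:**
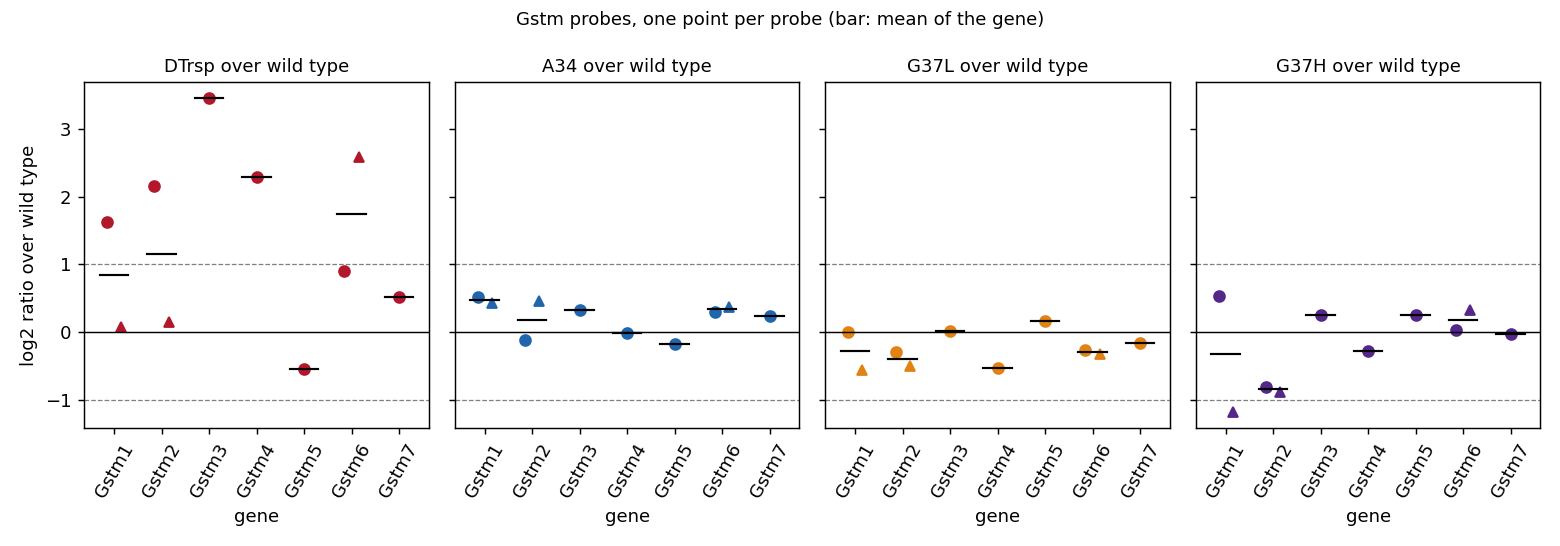
Each panel plots the log2 ratio over wild type (vertical axis) of every Gstm probe in 1 mouse line, with genes along the horizontal axis, circles and triangles for the 2 probes of a gene and a black bar for the gene's mean. In DTrsp the values spread between -0.54 and 3.46 and the 2 probes of Gstm1, Gstm2 and Gstm6 lie far apart, while in A34 all 10 probes lie between -0.18 and 0.51.

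Counted singly, 5 of 10 Gstm probes were at least 2-fold higher in DTrsp, where 3.84% of all probes were. They belong to 5 different genes, Gstm1, Gstm2, Gstm3, Gstm4 and Gstm6. In each gene with 2 probes, 1 probe passed 2-fold and the other did not. The gaps between partner probes in DTrsp were 1.56 for Gstm1, 2.01 for Gstm2 and 1.69 for Gstm6. Among the 1791 genes with exactly 2 probes the median gap in DTrsp was 0.43 and the 90th percentile 1.17, and the 3 Gstm gaps were wider than 96.9%, 99.4% and 98.4% of them. The 32 genes with 2 probes whose mean was at least 2-fold higher in DTrsp had a median gap of 0.56.

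In the transgenic lines most Gstm probe pairs lay closer. The gaps of Gstm1, Gstm2 and Gstm6 were 0.09, 0.57 and 0.07 in A34 and 0.55, 0.20 and 0.07 in G37L. In G37H they were 1.72, 0.08 and 0.29, against a median of 0.30 over all genes with 2 probes. The Gstm1 gap in G37H was wider than 98.9% of them. The Gstm1 means in DTrsp and G37H thus each join 1 probe past 2-fold with 1 that was not.

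The number of arrays behind a value can be read in part from its decimals. Of the 40 Gstm values, 17 have decimals that need all the animals the labels state, and 21 leave the number unknown. The other 2 cannot be such averages. Both belong to the same Gstm1 probe, at 0.42 in A34 and -1.19 in G37H. The Gstm3 value in DTrsp is among those that leave the number unknown, so it may rest on fewer than 4 animals.

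**Figure D2:**
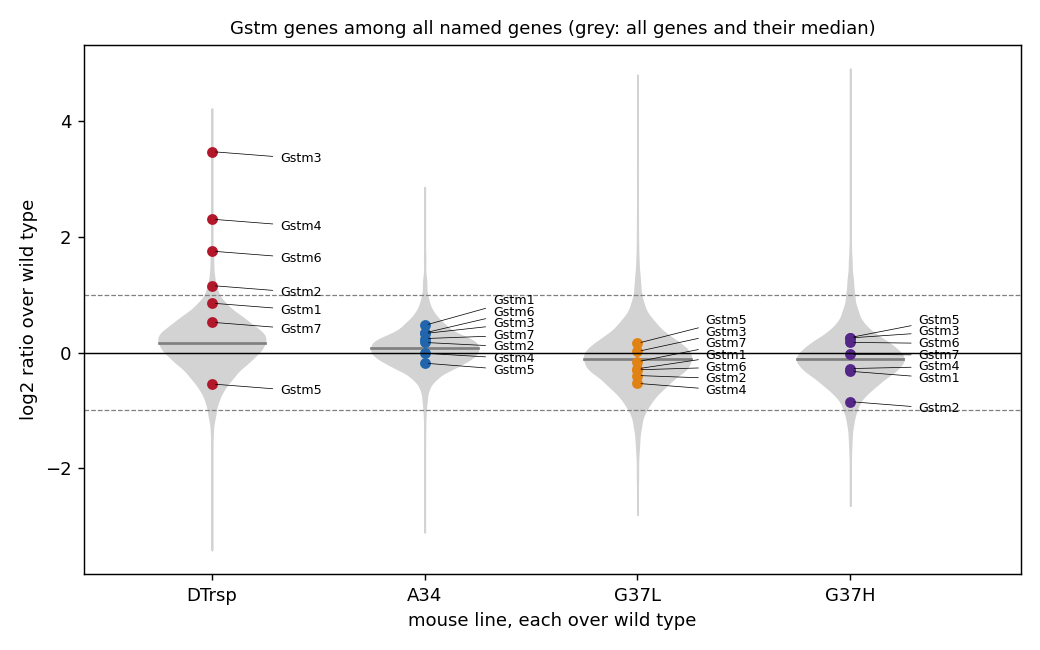
The vertical axis is the log2 ratio over wild type, each grey shape shows the distribution of all 9285 genes in 1 line with its median as a grey bar, and coloured points are the 7 Gstm genes. In DTrsp the members reach from -0.54 to 3.46, and in A34, G37L and G37H all 7 lie between the 2-fold lines.

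The order of the members differed between lines. In DTrsp it was Gstm3, Gstm4, Gstm6, Gstm2, Gstm1, Gstm7 and Gstm5 from highest to lowest, over a range of 4.01. In A34 Gstm1 was highest at 0.47 and Gstm5 lowest, over a range of 0.65. In G37L the order ran from Gstm5 at 0.16 to Gstm4 at -0.53, and in G37H from Gstm5 at 0.26 to Gstm2 at -0.85. With no spread between animals, neighbours in these orders cannot be separated from each other.

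Relative to all genes, the members leaned to opposite sides in A34 and G37L. In A34, 5 of 7 genes lay above the median of all genes, with Gstm1 at rank 1144 from the top. In G37L, 5 of 7 lay below it, and the same 5 were below wild type. In G37H, 4 of 7 lay above the median of all genes. The largest shift of a Gstm gene from the median of all genes was 0.40 in A34 (Gstm1) and -0.42 in G37L (Gstm4).

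Set against each transgenic line, DTrsp differed most at Gstm3 and next at Gstm4. The wild-type animals may be shared between comparisons, which the labels do not say. DTrsp minus A34 was 3.14 for Gstm3, 2.31 for Gstm4 and 1.41 for Gstm6, with a median of 0.98 over the 7 genes and 0.11 over all genes. DTrsp minus G37L had a median of 1.55 over the 7 genes and DTrsp minus G37H one of 1.57, against 0.28 and 0.29 over all genes. Gstm5 was the exception in all 3 differences, at -0.36, -0.70 and -0.80.

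Between the transgenic lines the differences were smaller. A34 minus G37L, with 2 transgene copies each and a different base changed, was above 0 for 6 of 7 genes, with a median of 0.52 against 0.20 over all genes. It was 0.75 for Gstm1 and -0.34 for Gstm5. G37H minus G37L, which sets 16 copies against 2 of the same transgene, was above 0 for 5 of 7 genes with a median of 0.13 against -0.01 over all genes. Gstm6 was 0.47 higher and Gstm2 0.45 lower in G37H, and in neither pair did any gene differ by 2-fold.

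Other transferase classes give the setting for these values. In DTrsp, 7 of 16 measured transferase genes outside the mu class were at least 2-fold higher, 0 lower, and their median was 0.74. Of all genes, 3.27% were higher and 1.62% lower by that much. The alpha class, whose enzymes also clear lipid peroxidation products, had 3 of 4 genes past 2-fold, with Gsta4 at 3.04 and Gsta1 at 2.06. The theta class had 2 of 3, with Gstt3 at 2.14. The microsomal Mgst3 was at 1.91. The mu median of 1.15 lay below those of the alpha (1.91), theta (1.52) and microsomal (1.26) classes and above those of the pi (0.59) and omega (0.49) classes. The microsomal, pi and omega classes had 2 measured genes each, so their medians are midpoints of 2 values. The microsomal genes were at 0.61 and 1.91.

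In G37L the mu median of -0.28 lay nearer to wild type than the alpha median of -0.97 and the theta median of -0.60. No mu gene was 2-fold lower, while Gsta1 at -1.31, Mgst3 at -1.24, Gstt3 at -1.21 and Gsta2 at -1.10 were. Of all genes in G37L, 3.96% were at least 2-fold lower. In the opposite direction, Gstp3 of the pi class was at 3.63 in G37L, 4.89 in G37H and 1.12 in A34, and at 0.58 in DTrsp. The highest Gstm values in the 3 transgenic lines were 0.16 in G37L, 0.26 in G37H and 0.47 in A34. In G37H the non-mu genes had a median of 0.37, above the mu median of -0.03.

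**Figure D3:**
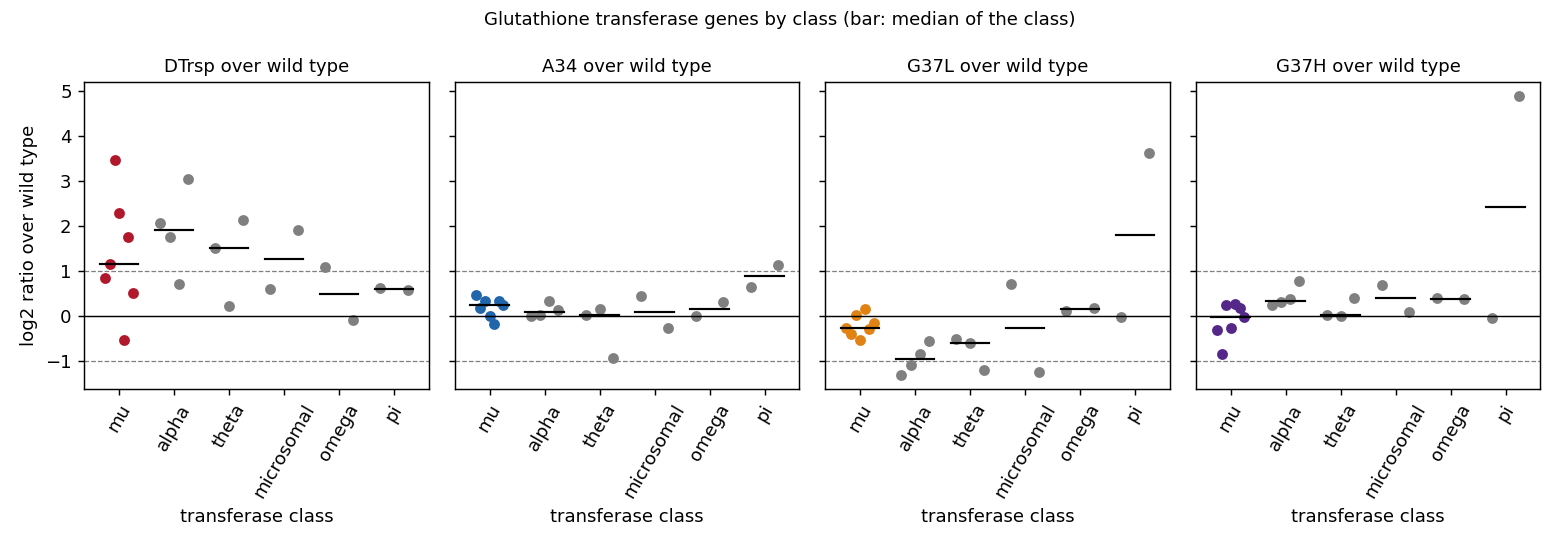
Points are single genes of each glutathione transferase class and black bars the class medians, as log2 ratio over wild type, with 1 panel per line and the mu class in colour. The mu, alpha, theta, microsomal and omega classes each include a gene past 2-fold in DTrsp, while in G37L and G37H the highest transferase is Gstp3, at 3.63 and 4.89.

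Some genes that supply glutathione or carry its conjugates away were also at least 2-fold higher in DTrsp. The list of glutathione synthesis and reduction also counts glutathione peroxidases and a thioredoxin reductase. Of its 13 measured genes, 5 were at least 2-fold higher and 0 lower, where 3.27% and 1.62% of all genes were. Of these 5, Gclc, the catalytic subunit of the enzyme that limits glutathione synthesis, was at 2.46. Gsr, which reduces oxidised glutathione, was at 1.69, and the pentose phosphate enzyme Pgd, which makes NADPH, was at 1.52. In A34, G37L and G37H none of the 13 was at least 2-fold higher, and 1, 1 and 2 were at least 2-fold lower. Of all genes, 1.4% (A34), 2.51% (G37L) and 2.78% (G37H) were higher by that much, and 0.452%, 3.96% and 3.1% lower. The transsulfuration enzyme Cth, which makes cysteine, was at -1.07 (A34), -2.47 (G37L) and -2.35 (G37H). In G37H Cbs was at -1.32. Of 6 conjugate and bile transporters, 3 were at least 2-fold higher in DTrsp, the efflux pumps Abcc3 at 1.39, Abcc2 at 1.22 and Abcc5 at 1.18. In A34, G37L and G37H none of the 6 reached 2-fold.

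Of 28 measured NRF2 target and regulator genes outside the cytosolic transferases, 17 were at least 2-fold higher in DTrsp and 0 lower, with a median of 1.22. Of all genes, 3.27% were higher and 1.62% lower by that much. Haem oxygenase Hmox1 was at 4.03, the UDP-glucose dehydrogenase Ugdh at 2.62, Gclc at 2.46 and the glucuronosyltransferase Ugt2b35 at 2.21. This list shares Gclc, Gclm and Txnrd1 with the glutathione list, Abcc3 with the transporters, and Mgst1 and Mgst3 with the other transferases. The counts therefore overlap and are not independent of each other. The list was also chosen with earlier results of these data known. In A34 2 of the 28 were at least 2-fold higher, and in G37L and G37H 1 each, which was Hmox1 in both, at 1.27 and 1.09. The shares of all genes were 1.4% (A34), 2.51% (G37L) and 2.78% (G37H). In G37L 3 of the 28 were at least 2-fold lower, Ugt2b35 and Mgst3 both at -1.24 and Blvrb at -1.08, where 3.96% of all genes were. In A34 and G37H 0 of the 28 were, where 0.452% and 3.1% of all genes were. The list had medians of 0.15 (A34), -0.18 (G37L) and -0.16 (G37H), where the Gstm medians were 0.24, -0.28 and -0.03. Any part of NRF2 in the Gstm values was not tested.

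The xenobiotic receptors CAR and PXR also regulate transferases in mouse liver. The list of their targets had 17 measured genes, with the genes of both receptors among them. In DTrsp 1 of 17 was at least 2-fold higher, the transporter Abcc2, where 3.27% of all genes were. In the other direction 2 were lower, Cyp2c54 at -1.12 and Cyp2c50 at -1.04, where 1.62% of all genes were. In G37L 1 of 17 was at least 2-fold higher, the classic CAR target Cyp2b10 at 1.37, where 2.51% of all genes were. There 3 were lower, Alas1 at -1.52, Cyp2c37 at -1.08 and Cyp2c54 at -1.02, where 3.96% of all genes were. The list median in G37L was -0.56. In G37H Cyp2b10 was at 2.84 and the transporter Slco1a4 at -1.04, each the only 1 past 2-fold in its direction, and the list median was 0.25. Of all genes in G37H, 2.78% were at least 2-fold higher and 3.1% lower. In A34 1 of 17 was at least 2-fold higher, Ugt1a1 at 1.21, and 0 lower, where 1.4% and 0.452% of all genes were. Cyp2b10 was at -0.97 in A34. Any part of these receptors in the Gstm values was not tested.

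The genome order of the family was compared with its values. On the GRCm38.p6 assembly the 7 genes follow each other on chromosome 3 in the order Gstm5, Gstm7, Gstm6, Gstm3, Gstm2, Gstm1 and Gstm4, with no other measured gene between them. Gstm5, the member below wild type in DTrsp, is at 1 end and on the opposite strand to Gstm3 and Gstm4. The 2 highest genes, Gstm3 and Gstm4, are not next to each other. Of the 5 nearest measured genes on each side, 1 of 10 was at least 2-fold higher in DTrsp, the G protein subunit Gnai3 at 1.08, and 0 were lower. Of all genes, 3.27% were higher and 1.62% lower by that much. The 10 neighbours had a median of -0.10. Csf1, the closest on the Gstm5 side, was at -0.91 and Ampd2, the closest on the Gstm4 side, at -0.39.

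**Figure D4:**
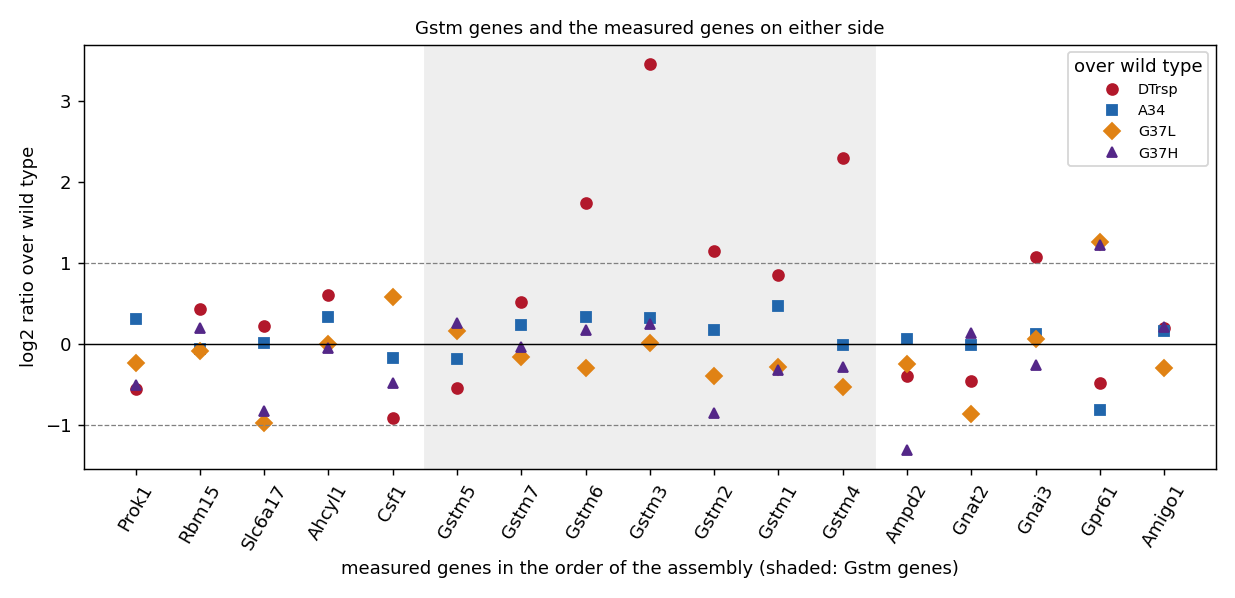
Genes stand on the horizontal axis in the order of the assembly, the 7 Gstm genes on a shaded ground and 5 measured genes on each side, and the vertical axis is the log2 ratio over wild type in the 4 lines. The DTrsp values of the Gstm genes rise to 3.46 at Gstm3, while the flanking genes lie between -0.91 and 1.08 in DTrsp.

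Genes with values over the 4 lines most like those of Gstm2, Gstm3, Gstm4 and Gstm6 were found by Euclidean distance, with each line centred on its median. These 4 genes were picked for being at least 2-fold higher in DTrsp, so their neighbours are high there by construction, and Gstm1, Gstm5 and Gstm7 are not described by them. The 4 averaged 2.17 in DTrsp, while A34 had 0.21, G37L -0.30 and G37H -0.17. The nearest of the 9278 other genes was Rhbg, an ammonium transporter of perivenous hepatocytes, at a distance of 0.13, where the median distance was 2.15. Ethe1, a mitochondrial sulfur dioxygenase, followed at 0.35, the natriuretic peptide clearance receptor Npr3 at 0.44 and Ugdh at 0.50. Gclc, Tbcel, Tgfa and Ddah1 lay between 0.61 and 0.62. The nearest to Gstm3 alone were the microtubule regulator Stmn1 at 0.76, Gsta4 at 0.92 and Ugdh at 1.01. Distances over 4 averaged values describe likeness in these comparisons only.

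Rhbg was 1 of 8 perivenous hepatocyte markers, and in DTrsp it was the only 1 of them at least 2-fold higher. By comparison, 3.27% of all genes were. The list's median was 0.36 in DTrsp, and glutamine synthetase Glul, its best known member, was at 0.34. The 5 measured periportal markers had a median of 0.41. The 6 general hepatocyte markers, among them Alb at 0.79, lay between 0.64 and 0.79 in DTrsp, above Gstm7 and Gstm5 and below the other 5 members. Their medians were 0.42 in A34, 0.63 in G37L and 0.71 in G37H, where the highest Gstm genes were at 0.47, 0.16 and 0.26. Macrophage markers went both ways in DTrsp, between -0.59 and 0.97, with a median of -0.11. The macrophage medians were 0.60, 0.74 and 0.58 in A34, G37L and G37H. Stellate cell markers lay between -0.997 and 0.31 in DTrsp, with a median of -0.56. Endothelial markers lay between -0.001 and 0.98 there, with a median of 0.54. In bulk liver, fewer cells of a type and less RNA per cell cannot be told apart, and the part of cell makeup in the Gstm values was not tested.

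**Figure D5:**
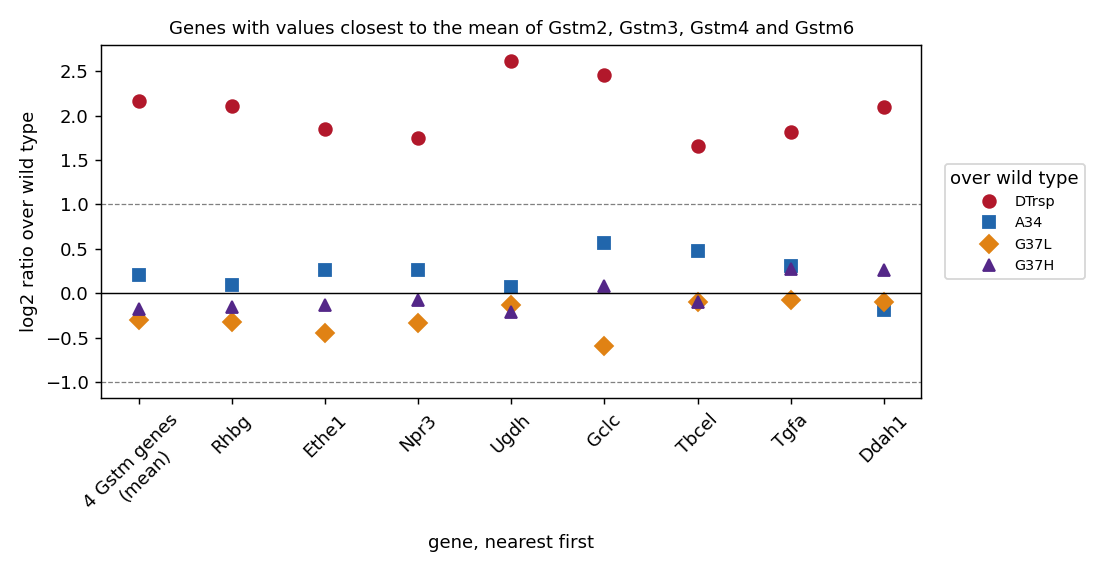
The leftmost column is the mean of Gstm2, Gstm3, Gstm4 and Gstm6 and the next 8 are the genes with the closest values, nearest first, with the log2 ratio over wild type of each line on the vertical axis. The 8 genes lie between 1.66 (Tbcel) and 2.62 (Ugdh) in DTrsp, and between -0.60 and 0.56, both of them Gclc values, in the other lines.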

How the data were processed

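Values were taken from the series' table of 4 columns, 1 per mouse line, with 15478 probes and 0 missing values. Per the labels, 15 µg of total RNA per sample was copied into cDNA with an oligo-dT primer, coupled to Cy3 or Cy5, and the deposited values are averages over biological replicates. They are read here as the authors' log2 ratios: the base of the logarithm is not stated and was taken as 2; the labels do not state the background correction, the normalization or any dye swap. Intensities were not used, so the depth of signal is unknown, and the number of arrays limits the precision.

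Of the probes, 12984 were named through the gene identifier and the GRCm38.p6 gene table and 63 by the annotation's symbol. The 110 annotated to several genes, none of them to a Gstm gene, and 2321 unlisted ones stayed unnamed. Probes of a gene were averaged (pandas 2.3.3, Python 3.11.15). A gene was counted at 2-fold or more, and no test was run. Each value was tested for being a multiple of a step of 4 decimals over 1, 2, 3 or 4, to within 0.01. Averaging, counting and the search for nearest genes were tested on simulated data. The named genes are all 7 members, at most 4 per other list and comparison with the largest absolute values, the 8 genes nearest to the mean of the 4 members at least 2-fold higher in DTrsp, and the 3 nearest to Gstm3. Genes beside the family were taken by position. Gsta2 in G37L, and Gstp3 and Glul in DTrsp, were named for context after their values were seen. Members and lists were chosen with earlier results of these data known. Alternatives were other centrings, fold thresholds, probe summaries and a natural logarithm.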

Additional observations from a re-analysis of the deposited data

How the results depend on the processing

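In DTrsp the count of Gstm genes at least 2-fold higher was 4. It was 3 with either centring or a 3-fold threshold, and 5 with a 1.5-fold threshold, a natural logarithm or probes counted singly. The median of probes equals their mean for genes with 1 or 2 probes. That alternative could therefore not change any Gstm value, and its values are among the 207 given below. In A34, G37L and G37H the count at least 2-fold higher was 0 under each alternative. The count at least 2-fold lower was 0 in every line as deposited. It was 1 in DTrsp after subtracting the median of the ribosomal protein genes (Gstm5). In G37H it was 1 after that centring, with a natural logarithm and with a 1.5-fold threshold (Gstm2), and 1 with probes counted singly (a Gstm1 probe).

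The DTrsp median of 1.15 was 0.99 after centring on all genes, 0.64 after centring on ribosomal protein genes, 1.66 as a natural logarithm, 1.36 as a mean and 1.27 over probes. The same centrings gave -0.17 and -0.61 in G37L and 0.083 and -0.20 in G37H, where the deposited median of -0.03 was close to 0, and ribosomal centring gave 0.044 in A34. As natural logarithms the medians were 0.35 in A34 and -0.40 in G37L. The ribosomal genes themselves had medians of 0.51 (DTrsp), 0.20 (A34), 0.33 (G37L) and 0.17 (G37H).

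Median differences between lines kept their direction under both centrings and over single probes. DTrsp minus A34 was 0.67 after ribosomal centring and 0.86 over probes. DTrsp minus G37L was 1.28 after centring on all genes, 1.37 after ribosomal centring and 1.40 over probes, and DTrsp minus G37H was 1.30, 1.23 and 1.17. G37H minus G37L was 0.29 after ribosomal centring. A34 minus G37L was 0.34 after centring on all genes and 0.65 after ribosomal centring. Over all results and alternatives, 97 of 207 values moved: a log2 value by 0.1 or more, or a count by over 1.5 times. Sign changes were counted only for values of at least 1 in size. Centring took off at most 0.51 and a natural logarithm only rescales, so these could not turn such values. Smaller values did change sign. In G37L, ribosomal centring took Gstm3 from 0.02 to -0.31 and Gstm5 from 0.16 to -0.17. No animal could be left out in turn, since only averages were used here.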
